A study of Mus musculus with 35 samples.

Results

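Liver RNA of mice lacking both E2f7 and E2f8 in their hepatocytes was compared with wild-type liver RNA at 3 weeks of age, over every gene named on the array. The comparison took the 4 knockout and 3 wild-type arrays whose titles carry that genotype and age, 7 of the 35 arrays in the series. The knockout animals were Albumin-Cre E2f7loxp/loxp E2f8loxp/loxp mice on the FVB background, and their deletion had been checked by PCR on DNA of each sample. The controls were FVB mice labelled as wild type, and the labels do not say whether they carried the Cre transgene or loxP-flanked alleles. Albumin-Cre, a recombinase driven by the albumin promoter, acts in hepatocytes. Whether the other cells of these livers keep both genes was not tested. The remaining arrays included livers lacking E2f7 or E2f8 alone (Albumin-Cre E2f7loxp/loxp or Albumin-Cre E2f8loxp/loxp) at 3 weeks and 2 months. Others came from the double knockout and wild type at 2 months, and from Mx1-Cre E2f1-/- E2f2-/- E2f3loxp/loxp livers at 2 months. No label states that the numbered samples of a group are different animals, so p-values here measure only the spread between these samples, which may be technical.

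E2F7 and E2F8 are the atypical members of the E2F family of transcription factors. They bind DNA without a DP partner and repress genes of DNA replication, DNA repair and the cell cycle that the activating E2F proteins switch on. In the liver they are known for their part in polyploidisation: around weaning many hepatocytes stop dividing after they have copied their DNA and become cells with several genomes, and hepatocytes without E2F7 and E2F8 are known to stay mostly diploid.

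The values are log2 RMA signals, and a difference of 1 on this scale is a doubling. Each of 18193 genes was represented by its brightest probe set over all 35 arrays. The 7 arrays lay in the same normalization run as all 15 arrays of 3 weeks. Each correlated across genes with the others of its group at a mean r of 0.992 to 0.995, and with the arrays of the other group at 0.991 to 0.994. The liver identity of the samples was plain in both groups: Alb, which encodes albumin, lay between 14.34 and 14.43 in the 7 arrays, with a difference of 0.00 (SE 0.04), and the median over 20 measured hepatocyte genes was -0.02. The 3' minus 5' signal of the control transcript Gapdh, a sign of RNA degradation, was 1.74 to 1.89 in the knockout and 1.81 to 1.97 in the wild type, with p = 0.457 in an exact permutation test (two-sided).

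The targeted genes were examined first. E2f7 stood at 4.89, 4.76 and 4.62 in the 3 wild-type arrays and at 4.31, 4.85, 4.62 and 4.66 in the 4 knockout arrays. The groups overlapped, and the difference was -0.15 (SE 0.15, limma adjusted p = 0.682). The brighter E2f8 probe set stood at 7.79, 7.22 and 6.45 in wild type and at 8.72, 9.56, 8.24 and 8.38 in the knockout, every knockout array above every wild-type array. E2f8 thus had a higher signal where the gene was deleted, by 1.58 (SE 0.35, 2.98-fold, adjusted p = 0.0349), a call that ended in 4 of 7 fits without 1 array (adjusted p up to 0.215, without wild-type replicate 3). The second E2f8 probe set differed by 0.91 (SE 0.29, adjusted p = 0.128 over 45037 probe sets). The exons read by these probes are not given in the sources used here; probes outside the floxed exons cannot check the deletion.

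The largest difference of all 18193 genes was in Gm2788, a gene annotated as a long non-coding RNA that overlaps E2f8 on chromosome 7. Whether the deletion of E2f8 reaches Gm2788 itself was not tested. Its signal was 9.60, 9.75 and 8.998 in wild type and 5.72, 5.65, 5.98 and 5.82 in the knockout. The gap between the groups was wider than the range within either, and Gm2788 fell by 3.66 (SE 0.43, adjusted p = 2.85e-05). It was called in every fit tried, those with the 3-week arrays alone (adjusted p = 9.67e-09) and with the 7 arrays alone included. Of the 100 measured genes nearest to E2f8, 50 on each side in gene order, 2 were called (0.649% of all genes were): Gm2788 and Abcc6, a transporter gene 33 places away. Abcc6 stood at 9.40, 9.58 and 8.56 in wild type and at 8.03, 8.83, 7.96 and 8.20 in the knockout. The groups overlapped by 1 array on each side, and Abcc6 fell by 0.93 (SE 0.20, adjusted p = 0.0263). Among the 100 genes around E2f7 on chromosome 10 none was called by limma. These neighbourhoods were examined after the values of Gm2788 had been seen.

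The other E2F genes did not pass. The differences were 0.26 for E2f1 (SE 0.12, adjusted p = 0.281), 0.32 for E2f2 (SE 0.12, adjusted p = 0.204) and 0.26 for E2f3 (SE 0.12, adjusted p = 0.284), the family's activators. E2f4, a repressor that works with the pocket proteins, stood at 7.78, 7.62 and 7.30 in wild type and at 7.83, 7.98, 8.06 and 7.82 in the knockout. The groups did not overlap, but the difference of 0.36 (SE 0.10) missed the threshold with adjusted p = 0.0906. E2f5 and E2f6 differed by 0.06 and -0.11.

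**Figure D1:**
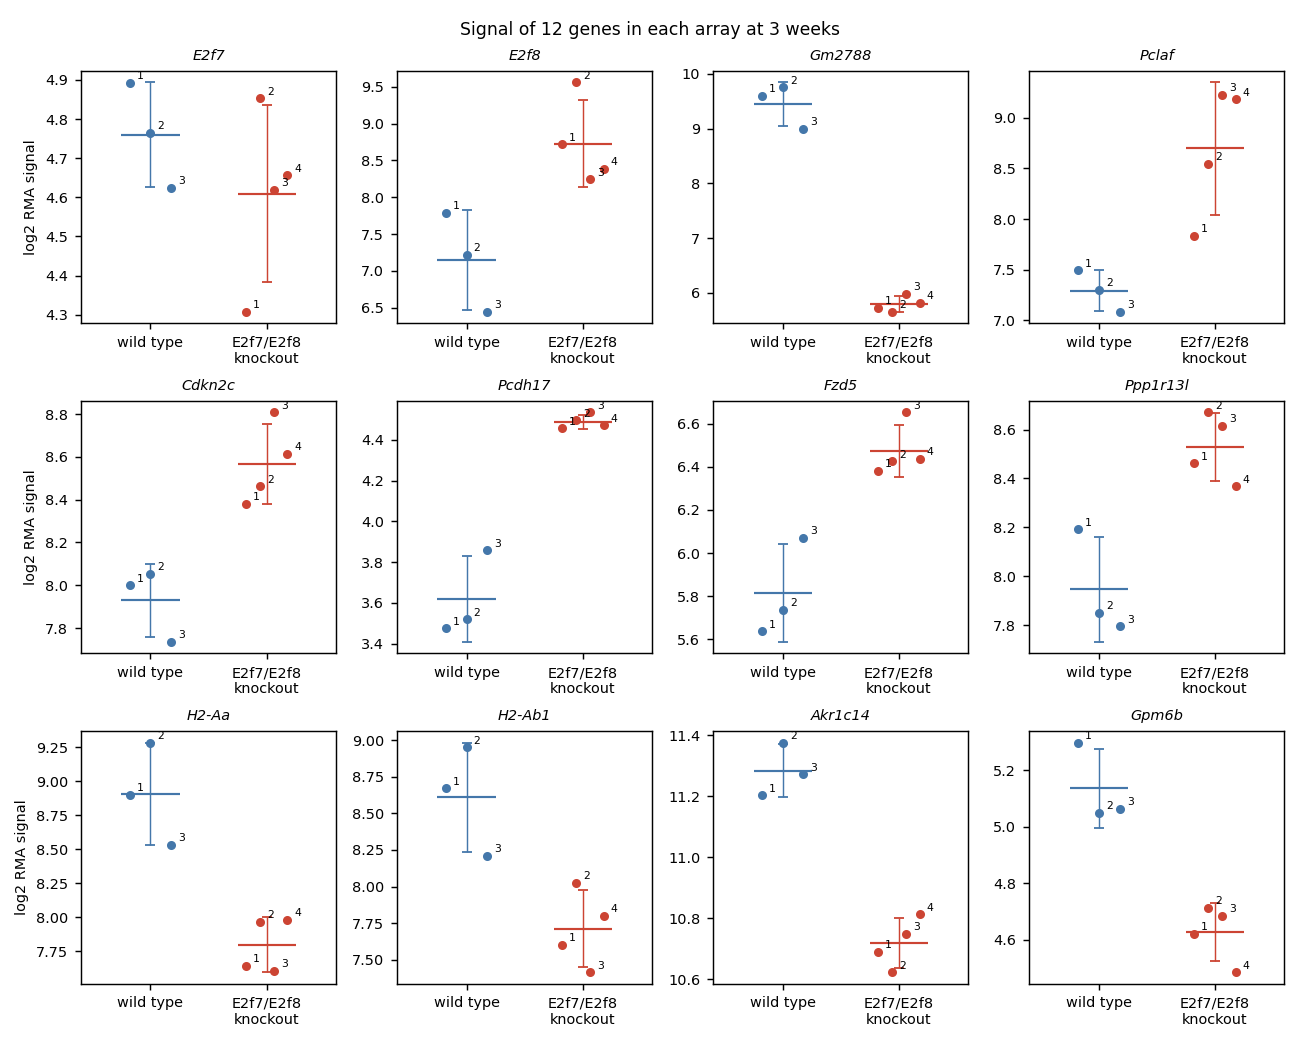
Log2 RMA signal (vertical axis) of 12 genes in the 3 wild-type arrays (blue) and the 4 E2f7/E2f8 knockout arrays (red) at 3 weeks; numbers are replicates, long lines are means and bars are 1 SD. E2f7 overlaps between the groups, Gm2788 drops from at least 8.998 to at most 5.98, and the knockout arrays of Pcdh17 lie within 4.46 to 4.53.

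Over all genes, 118 passed a Benjamini-Hochberg adjusted p under 0.05 (0.649% of 18193), 80 higher (0.44%) and 38 lower (0.209%) in the knockout. Of these, 64 of the higher and 26 of the lower genes differed by less than 1.5-fold. The 4 knockout arrays lay wholly above or below the 3 wild-type arrays in 70 of the 80 and 35 of the 38, against 10.4% of all genes (5.5% higher and 4.86% lower). The calls were made on the difference between these same arrays, so this separation is largely built in and is no independent support. With each array centred on its median gene the calls were 46 higher and 40 lower, so the share of higher calls went from 67.8% to 53.5%.

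How many genes were called depended on the arrays in the fit. The model took its estimate of each gene's spread from all 35 arrays, and the median residual SD was 0.138 over the arrays of 3 weeks and 0.108 over the first 2-month run. With the 15 arrays of 3 weeks alone 3 genes were called (0.0165%): Gm2788, Pcdh17 and Angptl8. With the 7 arrays alone 1 was called (0.0055%), Gm2788, where 2008 genes (11%) had an unadjusted p under 0.05. Of the 118 genes, 26 had an adjusted p under 0.1 with the 3-week arrays alone, and the highest value was 0.23. Leaving out knockout replicate 1, 2, 3 or 4 gave 58, 13, 56 or 291 calls, and leaving out wild-type replicate 1, 2 or 3 gave 549, 27 or 33. Angptl8, a feeding-induced hormone gene that acts on lipoprotein lipase, stood at 7.07, 8.03 and 7.94 in wild type and at 8.83, 9.54, 9.16 and 9.08 in the knockout. Its groups did not overlap. The difference of 1.48 (SE 0.43) had an adjusted p = 0.0935 with all arrays and 0.0067 with the 3-week arrays alone.

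**Figure D2:**
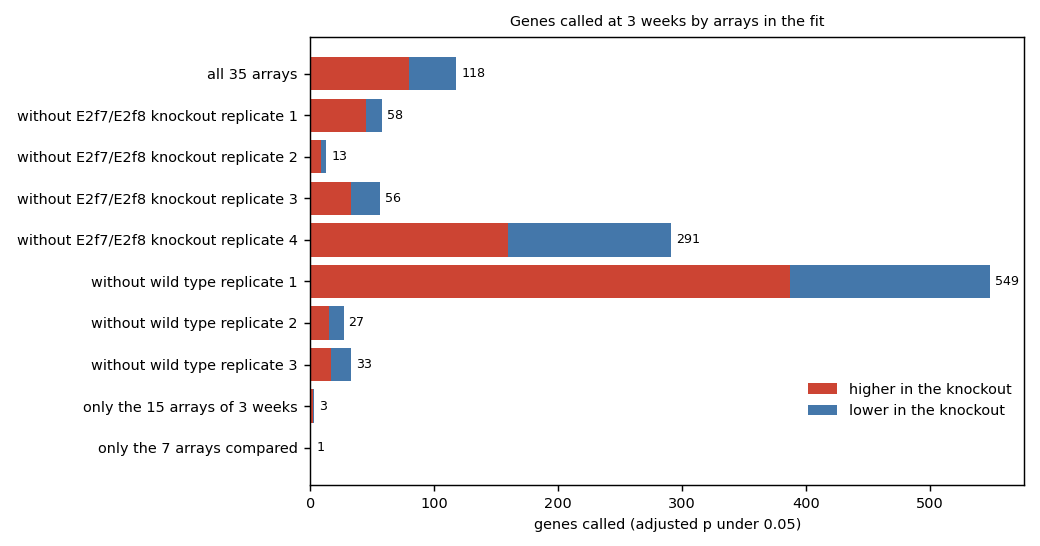
Number of genes called at adjusted p under 0.05 (horizontal axis), higher (red) and lower (blue) in the knockout, by the arrays that entered the limma fit (vertical axis). The count runs from 1 with the 7 arrays alone to 549 without wild-type replicate 1, beside 118 with all 35 arrays.

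Genes called higher were mostly dim and genes called lower mostly bright. The median signal was 5.20 among the 80 higher genes and 8.44 among the 38 lower ones, beside 6.15 over all genes. Among the dimmest 40% of genes lay 48 of the higher calls (60%) and 4 of the lower ones (10.5%). The median difference was 0.04 over these dim genes and -0.01 over the brighter 60%. Without the dim genes 64 genes were called, 32 in each direction.

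**Figure D3:**
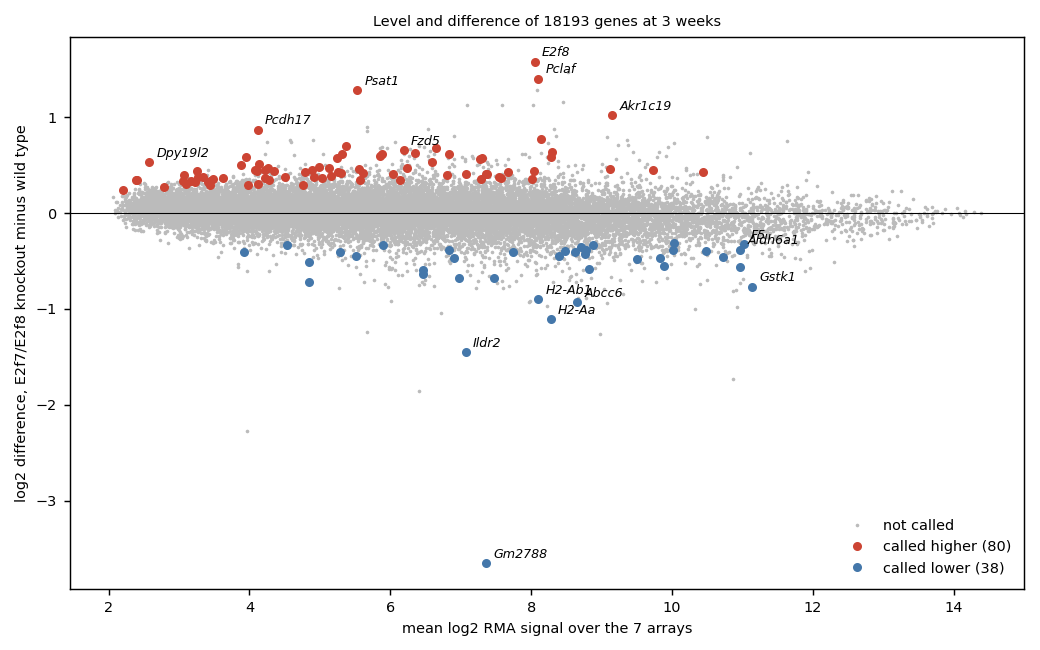
Log2 difference between knockout and wild type (vertical axis) against the mean log2 RMA signal over the 7 arrays (horizontal axis), 1 point per gene. The 80 genes called higher (red) gather at the dim end, the 38 called lower (blue) at the bright end, and Gm2788 stands apart at -3.66.

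Among the cell cycle genes Pclaf had the smallest adjusted p. It encodes a small protein that binds the replication clamp PCNA and is a known target of E2F regulation. Pclaf stood at 7.50, 7.30 and 7.09 in wild type and at 7.84, 8.55, 9.23 and 9.18 in the knockout. All knockout arrays were above all wild-type arrays, replicate 1 by the least and replicates 3 and 4 by the most. Pclaf rose by 1.40 (SE 0.22, 2.65-fold, adjusted p = 0.00277) and kept its call with each array left out in turn (adjusted p up to 0.0301), though not with the 3-week arrays alone (0.081). A second Pclaf probe set also passed (0.68, SE 0.11, adjusted p = 0.00699).

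Cdkn2c, an inhibitor of the G1 kinases CDK4 and CDK6, stood at 8.00, 8.05 and 7.73 in wild type and at 8.38, 8.46, 8.81 and 8.62 in the knockout. The groups did not overlap, and Cdkn2c rose by 0.64 (SE 0.13, adjusted p = 0.0254). It was the 1 called member among 7 CDK inhibitors (0.44% of all genes were called higher). Cdkn1a, which encodes the p53-induced inhibitor p21, ranged from 6.93 to 9.78 over the wild-type arrays alone, and its difference of -0.92 (SE 0.44) had an adjusted p = 0.311. Rad54l, a motor protein of homologous recombination, was 5.27, 4.99 and 4.50 in wild type against 5.05, 5.42, 5.77 and 5.74 in the knockout. It was called (0.58, SE 0.14, adjusted p = 0.0441) although knockout replicate 1 lay below wild-type replicate 1. Its other probe sets differed by 0.19 to 0.24 and were not called. Further called genes of cell division were picked out after their values were seen. They were Cdkn3, a phosphatase of CDK1 and CDK2 (0.71, SE 0.15), the kinetochore gene Spdl1 (0.46, SE 0.11), the tubulin gene Tubb5 (0.45, SE 0.11), the lamin gene Lmna (0.44, SE 0.09), and Atrip, the partner of the checkpoint kinase ATR (0.39, SE 0.09). Each of these lost its call in at least 3 of the 7 fits without 1 array. Other probe sets were not called for Lmna (0.04 to 0.41) and Tubb5 (0.38).

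The larger sets of proliferation genes held few calls. Of 53 measured DNA replication genes 1 was called, Pclaf (0.44% of all genes were called higher), and 36 lay above 0. Their median difference was 0.10, beside 0.01 over all genes, where 53.5% lay above 0. Cdc6, a loader of the replicative helicase, and Rrm2, a subunit of ribonucleotide reductase, differed by 0.74 and 1.13 without being called (adjusted p = 0.0883 and 0.0502). Of 64 genes of mitosis and cytokinesis 0 were called by limma, and 56 lay above 0 with a median of 0.21. The largest difference among them was 0.69, in Cdca3 (SE 0.22, adjusted p = 0.118), an adaptor for the breakdown of mitotic regulators. Mki67, the usual marker of cycling cells, differed by 0.58. Of 19 regulators of ploidy and cytokinesis only E2f8 itself was called, and Aurkb and Racgap1, which act at the midbody, differed by 0.40 and 0.27.

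These sets varied among the arrays of a group as much as between the groups. The mean over the mitosis genes was 6.13, 6.08 and 5.69 in wild type and 5.72, 6.14, 6.50 and 6.41 in the knockout. Wild-type replicate 3 and knockout replicate 1 were low and close to each other, while knockout replicates 3 and 4 were high. Without wild-type replicate 3 the median difference was 0.08 for the mitosis genes and 0.01 for the replication genes. Without knockout replicate 3 the mitosis median was 0.11. Both omissions narrow the difference. Leaving out knockout replicate 1, the lowest knockout array at 5.72, instead widens the difference between the group means of the mitosis genes. In the single knockouts of E2f7 and E2f8 the medians were 0.23 and 0.23 for the mitosis genes, and 0.23 and 0.06 for the replication genes.

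**Figure D4:**
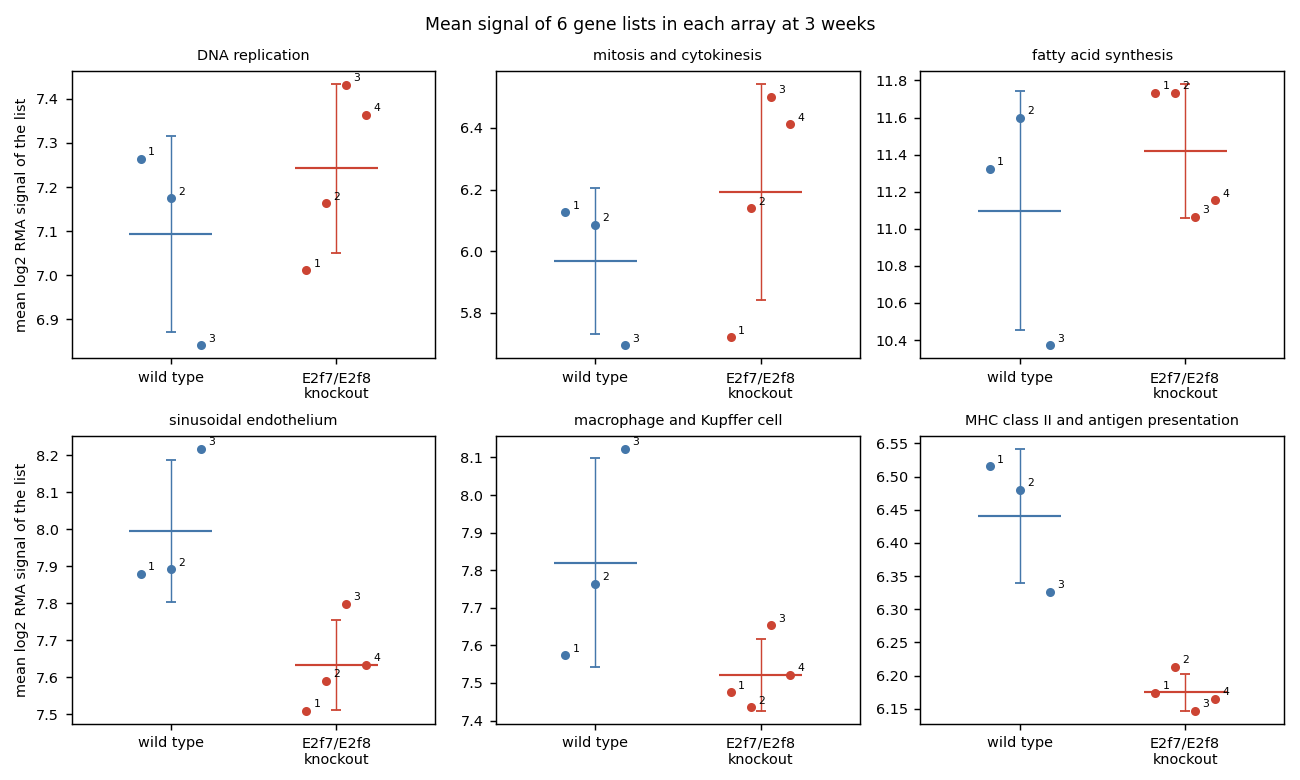
Mean log2 RMA signal (vertical axis) over the members of 6 gene lists in each wild-type (blue) and E2f7/E2f8 knockout (red) array at 3 weeks; numbers are replicates, long lines are means and bars 1 SD. The groups overlap for DNA replication, mitosis, fatty acid synthesis and macrophage genes and are separate for sinusoidal endothelium and MHC class II genes.

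The promoters of the called genes were searched for the E2F site in the forms TTTCCCGC, TTTGGCGC, TTTCGCGC and TTTGCCGC, on both strands, in the 250 bases before and 50 bases after the start given by RefSeq (build GRCm38.p6). A match occurred in 744 of 32851 such windows (2.26%) and in 3.81% of the 14452 measured genes that had one. Of 70 genes called higher with a window 4 had a match (5.71%), and of 29 called lower 0. The 4 are printed 5′ to 3′ along the gene's strand, because they are the called genes whose promoter holds the letters of an E2F site. Capitals mark the match. The windows are chr9:65890073-65890372 on the plus strand for Pclaf and, all on the minus strand, chr9:78443188-78443487 for Cgas, chr2:39065492-39065791 for Golga1 and chr5:31108195-31108494 for Slc30a3.
Pclaf: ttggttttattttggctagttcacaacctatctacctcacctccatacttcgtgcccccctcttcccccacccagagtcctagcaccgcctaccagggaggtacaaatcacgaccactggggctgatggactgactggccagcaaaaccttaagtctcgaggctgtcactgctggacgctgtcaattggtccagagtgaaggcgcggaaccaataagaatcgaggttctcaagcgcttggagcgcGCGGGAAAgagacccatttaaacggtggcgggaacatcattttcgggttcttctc
Cgas: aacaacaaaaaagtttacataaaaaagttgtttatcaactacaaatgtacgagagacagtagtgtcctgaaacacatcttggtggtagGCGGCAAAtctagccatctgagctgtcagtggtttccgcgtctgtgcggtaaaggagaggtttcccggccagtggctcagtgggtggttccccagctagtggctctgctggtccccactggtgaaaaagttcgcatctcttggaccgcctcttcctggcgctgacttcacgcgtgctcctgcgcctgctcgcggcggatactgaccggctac
Golga1: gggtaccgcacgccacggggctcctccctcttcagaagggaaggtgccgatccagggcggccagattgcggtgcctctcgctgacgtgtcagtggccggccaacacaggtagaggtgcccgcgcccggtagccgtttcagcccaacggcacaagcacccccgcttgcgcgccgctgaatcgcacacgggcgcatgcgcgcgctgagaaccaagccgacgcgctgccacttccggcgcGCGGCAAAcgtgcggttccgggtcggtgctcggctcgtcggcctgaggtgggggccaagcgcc
Slc30a3: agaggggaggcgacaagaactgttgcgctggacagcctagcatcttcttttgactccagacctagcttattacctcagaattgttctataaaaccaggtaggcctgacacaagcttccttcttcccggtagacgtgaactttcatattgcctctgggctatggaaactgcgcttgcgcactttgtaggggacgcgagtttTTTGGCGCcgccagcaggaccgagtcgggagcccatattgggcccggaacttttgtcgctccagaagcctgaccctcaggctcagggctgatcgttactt

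The match of Pclaf began 5 bases before the start site and ran across it, that of Golga1 began at -13, that of Slc30a3 at -50 and that of Cgas at -162. Slc30a3 has another window, chr5:31093478-31093777 on the minus strand, with a match at -130, which is not printed. Cgas, Golga1 and Slc30a3 were chosen for this match and not by size. Cgas, a sensor of cytosolic DNA, rose by 0.47 (SE 0.11, adjusted p = 0.0358), Golga1 of the Golgi by 0.37 (SE 0.09, adjusted p = 0.0447) and the zinc transporter Slc30a3 by 0.35 (SE 0.08, adjusted p = 0.0441). Other probe sets were not called for Cgas (0.33) and Golga1 (0.12 and 0.20). A match was much more frequent among the DNA replication genes, in 18 of 44 with a window (40.9%). The median difference of these 18 was 0.21, with 15 above 0 and 1 called, and that of the 26 without a match was 0.04, with 15 above 0 and 0 called by limma. The CHR letters TTTGAA, an element of genes expressed in G2 and mitosis, occurred in 40 of 55 mitosis genes (72.7%), in 15.7% of measured genes and in 10 of the 70 genes called higher (14.3%).

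Outside the cell cycle, Pcdh17 and Fzd5 rose, and no single array was needed for either call. Pcdh17, a protocadherin of cell adhesion known mainly from the brain, stood at 3.48, 3.52 and 3.86 in wild type and at 4.46, 4.50, 4.53 and 4.47 in the knockout. The knockout arrays were almost identical and all above wild type. Pcdh17 rose by 0.87 (SE 0.13, 1.83-fold, adjusted p = 8.76e-04) and passed with the 3-week arrays alone (0.0259). Its signal was dim, at percentile 20.2 of all genes, and a second, dimmer probe set differed by 0.43 (SE 0.12, adjusted p = 0.094). Fzd5, a Wnt receptor, stood at 5.64, 5.74 and 6.07 in wild type and at 6.38, 6.42, 6.65 and 6.44 in the knockout, again without overlap. Fzd5 rose by 0.66 (SE 0.12, adjusted p = 0.00855, up to 0.0491 without 1 array), while its second probe set differed by 0.10 (SE 0.11). Of 12 protocadherins outside the gene clusters and 19 Wnt receptors and targets these were the only called members (0.44% of all genes were called higher). The list medians were 0.11 and -0.04.

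Ppp1r13l, which encodes the p53 inhibitor iASPP, stood at 8.19, 7.85 and 7.80 in wild type and at 8.46, 8.67, 8.62 and 8.37 in the knockout, and rose by 0.58 (SE 0.09, adjusted p = 0.00397). Its 3 other probe sets were not called, at -0.02 (adjusted p = 0.96), 0.17 (0.314) and 0.30 (0.105). The targets of p53 were not called in either direction (0 of 23 by limma). Of them 18 lay below 0 (46.5% of all genes did), with a median of -0.18, or -0.11 after quantile normalization. A pair of further genes kept their call without any 1 array. Gpm6b, a membrane proteolipid, was 5.30, 5.05 and 5.06 in wild type and 4.62, 4.71, 4.69 and 4.49 in the knockout, and fell by 0.51 (SE 0.09, adjusted p = 0.00855); a pair of dimmer probe sets of Gpm6b, neither called, both stood at -0.13. Dpy19l2, known from sperm head formation, was near the bottom of the scale in all arrays, at 2.21 to 2.36 in wild type and 2.57 to 2.99 in the knockout, and rose by 0.53 (SE 0.09, adjusted p = 0.00712). Among the other large rises were Alg2 of glycoprotein assembly (0.77, SE 0.18), the chloride transporter Clcn6 (0.68, SE 0.13) and Sgsm1, a regulator of small GTPases (0.62, SE 0.13). Nme6, a nucleoside diphosphate kinase, rose by 0.57 (SE 0.13) and the transcription activator Camta1 by 0.53 (SE 0.10). Other probe sets were not called for Alg2 (-0.06), Clcn6 (0.34), Sgsm1 (-0.10 and 0.38) and Camta1 (-0.06 to 0.21).

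Of the metabolic genes, Psat1 rose the most. It encodes the aminotransferase of serine synthesis and stood at 4.70, 4.86 and 4.83 in wild type and at 6.81, 6.68, 5.22 and 5.60 in the knockout. The groups did not overlap, and knockout replicates 1 and 2 were more than 1 log2 unit above replicates 3 and 4. Psat1 rose by 1.28 (SE 0.29, adjusted p = 0.0358; adjusted p up to 0.144 without 1 array), and its second probe set by 1.30 (SE 0.26, adjusted p = 0.0218). The other enzymes of the pathway, Phgdh and Psph, differed by 0.40 (SE 0.11, adjusted p = 0.071) and 0.33 (SE 0.12). Psat1 was the 1 called gene among 18 genes of serine and glycine synthesis and ATF4 targets, with a median of 0.12 (0.44% of all genes were called higher). Aldh18a1, the first enzyme of proline synthesis, picked out after its value was seen, rose by 0.48 (SE 0.11, adjusted p = 0.0441). The same knockout replicates 1 and 2 were also the high ones for fatty acid synthesis, whose 17 genes had a mean of 11.73, 11.73, 11.06 and 11.15 in the knockout and 11.33, 11.60 and 10.37 in wild type. None of these 17 was called by limma. Their median was 0.27, and it was -0.10 without wild-type replicate 3.

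The Akr1c family of hydroxysteroid dehydrogenases held a rise and a fall. Akr1c19 was 8.55, 8.79 and 8.36 in wild type and 9.68, 9.67, 9.88 and 9.10 in the knockout, and rose by 1.02 (SE 0.22, adjusted p = 0.0254). Akr1c14 was 11.20, 11.38 and 11.27 in wild type and 10.69, 10.62, 10.75 and 10.81 in the knockout, and fell by 0.56 (SE 0.11, adjusted p = 0.0216). Neither overlapped between the groups, and the other 6 members were not called. In the single knockouts of E2f7 and E2f8, Akr1c14 also fell against wild type, at -0.67 and -0.65 (adjusted p = 0.00664 and 0.00207). Akr1c19 differed there by 0.92 and 0.62 (adjusted p = 0.0919 and 0.134). The genes are near copies of each other in sequence, so a probe set may also read a relative. Akr1c14 was the 1 called gene among 21 of bile acid synthesis and transport, with a median of -0.24 and 16 below 0, and Cyp7a1, the rate-limiting enzyme of bile acid synthesis, differed by -0.21. Among 30 genes of xenobiotic metabolism, 25 lay below 0 (median -0.22) and 1 was called: Sult1b1, a sulfotransferase, which fell by 0.68 (SE 0.15, adjusted p = 0.0358). Gstk1, a mitochondrial glutathione transferase named after its values were seen, fell by 0.77 (SE 0.18, adjusted p = 0.0388).

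A few enzymes that break down branched-chain amino acids fell in the knockout. Aldh6a1, which acts in valine breakdown, was 11.05, 11.16 and 11.34 in wild type and 10.77, 10.71, 10.86 and 10.87 in the knockout. The groups did not overlap, and Aldh6a1 fell by 0.38 (SE 0.07, adjusted p = 0.00818), with its call lost in 1 fit, without wild-type replicate 3 (0.0658). Ppm1k, the phosphatase that activates the branched-chain ketoacid dehydrogenase, fell by 0.55 (SE 0.13, adjusted p = 0.0382), and Acadsb, an acyl-CoA dehydrogenase of isoleucine breakdown, by 0.39 (SE 0.08, adjusted p = 0.0227). Of 22 measured genes of this breakdown these 3 were called, all lower (0.209% of all genes were), and 21 lay below 0 with a median of -0.16, or -0.09 after quantile normalization. The 1 above 0 was Bcat2, an aminotransferase of the first step, at 0.85 (SE 0.30, adjusted p = 0.164). The list was made after the falls of its members had been seen and is no independent support for them. The list's mean overlapped between the groups, at 9.85 to 10.06 in wild type and 9.64 to 9.93 in the knockout. In the single knockouts of E2f7 and E2f8 the list's median difference from wild type was -0.14 and -0.21. Aldh6a1 was called in both, at -0.51 (adjusted p = 2.85e-04) and -0.37 (adjusted p = 0.00279). Ppm1k differed there by 0.00 and -0.40 without being called.

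Among 24 genes of coagulation and complement, which hepatocytes secrete, 3 were called, all lower (0.209% of all genes were), and 18 lay below 0, or 75%, beside 46.5% of all genes. Tfpi, the inhibitor of the tissue factor pathway, which endothelium also makes, was 6.69, 6.92 and 6.87 in wild type and 5.65, 5.95, 6.66 and 6.49 in the knockout, with replicates 1 and 2 the lowest. It fell by 0.64 (SE 0.15, adjusted p = 0.0447). Pros1, encoding the anticoagulant protein S, fell by 0.39 (SE 0.10, adjusted p = 0.0447) and F5, encoding coagulation factor V, fell by 0.32 (SE 0.07, adjusted p = 0.0331). Each lost its call in 4 or 5 of the 7 fits without 1 array. A second F5 probe set of similar brightness differed by only -0.11 (SE 0.09, limma adjusted p = 0.545). The other Tfpi probe sets differed by -0.58 to -0.28 without being called. The list's median was -0.09, and -0.03 after quantile normalization.

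Among genes of the non-parenchymal cells, 2 of 12 MHC class II genes and 1 of 22 markers of sinusoidal endothelium were called lower (0.209% of all genes were). H2-Aa, an MHC class II chain that presents peptides to CD4 T cells, stood at 8.90, 9.29 and 8.54 in wild type and at 7.64, 7.97, 7.61 and 7.98 in the knockout. H2-Ab1, its partner chain, stood at 8.67, 8.95 and 8.21 in wild type and at 7.60, 8.03, 7.41 and 7.80 in the knockout. In both genes all knockout arrays were below all wild-type arrays. H2-Aa fell by 1.11 (SE 0.22, adjusted p = 0.0227) and H2-Ab1 by 0.90 (SE 0.22, adjusted p = 0.0447). A second probe set of H2-Aa and both further ones of H2-Ab1 were called too, at -0.96, -0.98 and -0.83, while the dimmer H2-Aa sets differed by -0.45 and -0.04. Cd74, the invariant chain that guides class II molecules, lay without overlap at -0.64 (SE 0.19, adjusted p = 0.102), and H2-Eb1 and the class II activator Ciita differed by 0.05 and -0.07. H2 genes are alike in sequence and vary between mouse strains. The labels give FVB for both groups, and whether the groups carry the same H2 alleles was not tested.

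Markers of sinusoidal endothelium, the cells that line the liver's capillaries, lay below 0 in 21 of 22 members (46.5% of all genes did), with a median of -0.35. The same markers had medians of -0.21 and -0.29 in the single knockouts of E2f7 and E2f8 against the same wild-type arrays. Maf, a transcription factor of these cells, was the 1 called member (0.209% of all genes were called lower). It was 8.95, 9.01 and 9.50 in wild type and 8.37, 8.48, 8.67 and 8.74 in the knockout, and fell by 0.59 (SE 0.14, adjusted p = 0.0421); 5 other Maf probe sets differed by -0.27 to 0.20. Lyve1 and Stab2, receptors for hyaluronan on these cells, differed by -0.71 and -0.47 and did not overlap between the groups, nor did 8 further members (4.86% of all genes lay lower without overlap). The list's mean was 7.88, 7.89 and 8.22 in wild type and 7.51, 7.59, 7.80 and 7.63 in the knockout, with wild-type replicate 3 the highest. Its median without that array was -0.23. In bulk liver RNA, fewer cells of a type and less RNA per cell cannot be told apart.

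Other cell types were checked in the same way. Of 19 macrophage and Kupffer cell markers 18 lay below 0 (46.5% of all genes did) with a median of -0.24, and 0 were called by limma. Wild-type replicate 3 was again highest (means of 7.57, 7.76 and 8.12 against 7.44 to 7.65). The median was -0.16 without that array. In the single knockouts of E2f7 and E2f8 the macrophage and Kupffer cell median was -0.37 and -0.42. Of 17 stellate cell and fibroblast markers 16 lay below 0 with a median of -0.07, or -0.02 after quantile normalization. Medians were 0.04 over 15 lymphocyte, 0.00 over 10 neutrophil and monocyte, 0.00 over 10 erythroid and 0.04 over 7 cholangiocyte markers. Wild-type replicate 3, the highest for macrophage and endothelial markers, was the lowest of the wild-type arrays for MHC class II genes (6.33 against 6.52 and 6.48). Between the groups the MHC class II mean was lower in the knockout, at 6.15 to 6.21 against 6.33 to 6.52 in wild type. Whether cell content underlies the lower class II signal was not tested.

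The double knockout was next set against each single loss at 3 weeks, which tests directly where losing both genes differs from losing 1. These comparisons share the double-knockout arrays. Against the E2f7 knockout 22 genes were called (0.121%), 9 higher and 13 lower, and against the E2f8 knockout 126 (0.693%), 68 higher and 58 lower. With the 15 arrays of 3 weeks alone the counts were 7 and 41. Without double-knockout replicates 1, 2 and 3 they were 16, 9 and 7 against E2f7 loss and 77, 69 and 63 against E2f8 loss. Pcdh17 was higher in the double knockout than in both, by 0.78 (SE 0.12, adjusted p = 0.00176) against E2f7 loss and 1.02 (SE 0.12, adjusted p = 6.66e-06) against E2f8 loss. Its level was 3.62 ± 0.21 (SD, n = 3) in wild type, 3.71 ± 0.29 (n = 4) without E2f7, 3.47 ± 0.11 (n = 4) without E2f8 and 4.49 ± 0.03 (n = 4) without both. Pclaf was 7.30 ± 0.21 in wild type, 7.74 ± 0.19 without E2f7, 8.28 ± 0.29 without E2f8 and 8.70 ± 0.65 without both. The step from E2f7 loss to double loss was 0.96 (SE 0.20, adjusted p = 0.0475), and that from E2f8 loss, 0.42 (SE 0.20), did not pass (adjusted p = 0.38). Fzd5 stood 0.55 above the E2f7 knockout (SE 0.11, adjusted p = 0.0266) and 0.26 above the E2f8 knockout (SE 0.11, adjusted p = 0.294).

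Other genes were lower after the double loss than after either single loss. Ildr2, a membrane protein of lipid handling in the liver, was 7.90 ± 0.82 in wild type, 8.20 ± 0.57 and 8.97 ± 0.22 in the single knockouts of E2f7 and E2f8, and 6.45 ± 0.54 in the double knockout. It was lower than in each of them (-1.76, SE 0.32, adjusted p = 0.0184, and -2.52, SE 0.32, adjusted p = 6.75e-05). Ephb6, a receptor of the ephrin family without kinase activity, differed by -1.27 from each (SE 0.20 each, adjusted p = 0.0048 and 0.00169). Its wild-type arrays were spread from 3.72 to 5.19, and its difference from wild type was -0.53 (SE 0.22, adjusted p = 0.237). Gstk1 was lower too, at -0.96 and -0.83 (SE 0.16 each, adjusted p = 0.00724 and 0.0116). H2-Aa was below the E2f7 knockout, at -1.03 (SE 0.21, adjusted p = 0.0341) and, at -0.58 (SE 0.21, adjusted p = 0.21), did not pass against the E2f8 knockout.

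The largest differences from the E2f8 knockout in the upward direction were in genes near their wild-type level in the double knockout. Trhde, a peptidase that inactivates thyrotropin-releasing hormone, was 4.56 ± 0.47 in wild type, 4.60 ± 0.10 in the double knockout and 2.41 ± 0.20 in the E2f8 knockout, a difference of 2.19 (SE 0.19, adjusted p = 4.35e-08). B4galnt1, a ganglioside synthase, was 9.002 ± 0.37, 8.85 ± 0.15 and 5.13 ± 1.93 in the same order, 3.73 higher in the double knockout (SE 0.62, adjusted p = 0.00209). Gm2788 and Abcc6 showed another order: at 5.71 ± 0.21 and 8.15 ± 0.27 in the E2f8 knockout they differed from the double knockout by 0.09 (SE 0.40) and 0.11 (SE 0.18). In the E2f7 knockout, at 9.74 ± 0.33 and 9.33 ± 0.24, both were higher, and the double knockout differed from it by -3.94 and -1.08 (adjusted p = 9.19e-07 and 0.00724).

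**Figure D5:**
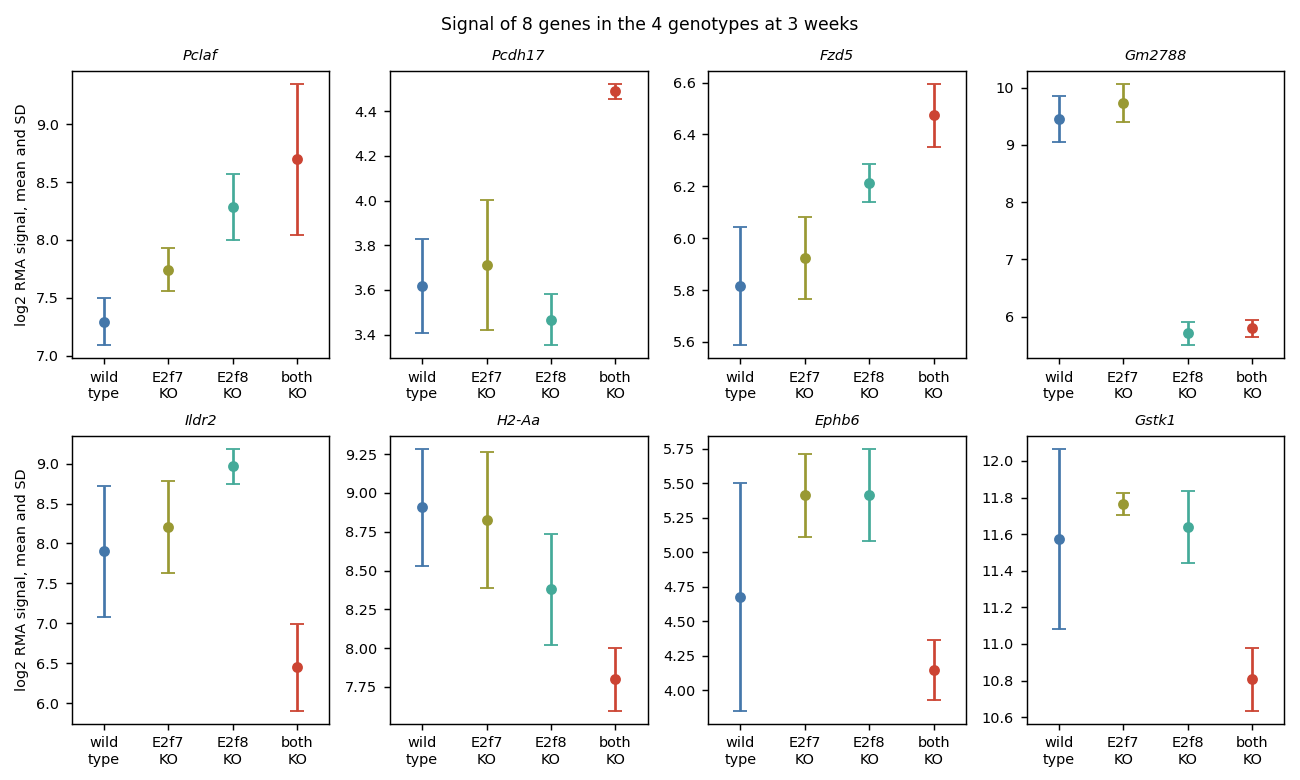
Mean log2 RMA signal with 1 SD (vertical axis) of 8 genes in the 4 genotypes at 3 weeks (horizontal axis; n = 3 for wild type and 4 for each knockout). Pcdh17 is high, and Ildr2, Ephb6 and Gstk1 are low, in the double knockout beside both single knockouts, while Gm2788 is low in both groups that lack E2f8.

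At 2 months the same knockout and wild type differed in 2 genes (0.011%). Gm2788 was lower again, at -3.38 (SE 0.43, adjusted p = 1.50e-04), and Yae1d1, an adaptor in the assembly of iron-sulfur proteins, rose at both ages, by 0.69 at 2 months (SE 0.10, adjusted p = 0.00108) and by 0.58 at 3 weeks (SE 0.10, adjusted p = 0.00818). These values are of its brightest probe set. At 3 weeks its other probe sets, not called, stood at -0.40 (SE 0.10, adjusted p = 0.0592) and 0.35 (SE 0.11, adjusted p = 0.129). The brightest Yae1d1 probe set was also higher in the single knockouts of E2f7 and E2f8 at 3 weeks, by 0.61 and 0.57 (adjusted p = 0.00664 and 0.0022). The change of the effect with age was called in 1 gene (0.0055%), Pcdh17, whose difference was -0.16 at 2 months (SE 0.13; change of 1.03, SE 0.18, adjusted p = 0.0394). The Pcdh17 levels at 2 months, from another normalization run, were 4.39 ± 0.22 (n = 3) in wild type and 4.23 ± 0.11 (n = 4) in the knockout. Pclaf differed by 0.17 at 2 months, Psat1 by -0.62 and H2-Aa by -0.45, and their changes with age did not pass (adjusted p = 0.35, 0.228 and 0.68).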

How the data were processed

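The series holds 35 arrays with 45101 probe sets. The deposited values are log2 signals that the authors made with RMA (version not stated), per the submitters' processing notes. Arrays have no read depth, and the number of arrays limits the precision. Of the probe sets 64 were Affymetrix controls, 34945 had 1 gene symbol, 932 several and 9160 none; only those with 1 symbol were used, and 0 symbols changed against the Entrez identifiers of the reference gene table (18145 of 18193 genes had a position there). The arrays formed 3 normalization runs by their sorted values, and no pair shared over 0.184% identical values.

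The fit was made in R 4.3.3 with limma 3.58.1 and covered all 35 arrays, with a mean per group, a term for the second 2-month run and an intensity trend (25 residual degrees of freedom). A gene was called where its p, adjusted by Benjamini-Hochberg over all genes, was under 0.05. Python 3.11.15 with numpy 2.4.6, scipy 1.17.1 and matplotlib 3.10.9 did the rest. Simulated data with 50 of 18193 genes changed at each size gave back 39, 48, 50 and 50 at 0.5, 1, 2 and 4 log2, with 10 false calls. The simulated noise was independent and normal, at each gene's residual SD over all arrays. No array-wide shifts, variation shared between genes or other group differences were simulated, so these rates need not hold for the real calls.

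The rule named the E2F genes with Gm2788, the 20 largest rises and falls among called genes whose groups did not overlap, the 20 smallest adjusted p-values, called list members, genes called with fewer arrays, and the 5 largest called differences each way of the other comparisons; a selection of these 71 genes is described. Genes that have just a clone or predicted name, 9 of the 118 called, were counted and not named, other than Gm2788. The genes compared, the 40 gene lists and the rule were chosen with earlier results of these data known, and 2 further lists (branched-chain amino acid breakdown, proline synthesis) after their members' values were seen. Alternatives were fits with fewer arrays or without the run term, quantile normalization or centring of the arrays, leaving out dim genes, averaging the probe sets of each gene, array weights, no trend, a block for the replicate number, and fits without 1 of the 7 arrays. Replicate numbers do not pair the samples: the deviations of same-numbered arrays from their group means correlated at -0.13, 0.20 and 0.12. Promoter windows are RefSeq's, and were found for 70 of the 80 genes called higher and 29 of the 38 called lower.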

Additional observations from a re-analysis of the deposited data

Results flagged for a closer look

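E2f1, the activating E2F gene with the family's best known targets in DNA replication, was flagged because 1 knockout array stood apart. Replicate 3 was at 6.97 and the other 3 arrays at 6.74 to 6.78, so the gap to the nearest array was 0.837 of the group's range, above Dixon's critical value of 0.829 for 4 samples. The test was made on the knockout arrays of 71 named genes and flagged 1, where chance flags about 1 in 20 groups.

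Pcdh17 was flagged because its difference between knockout and wild type changed with age, by 1.03 log2 (limma adjusted p = 0.0394), from 0.87 at 3 weeks to -0.16 at 2 months.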

How the results depend on the processing

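Of the 51 called genes that the naming rule gave, 0 changed sign under any alternative that tested them. The count of 118 genes called at 3 weeks was 3 with the 15 arrays of that age, 1 with the 7 arrays, 8 without a run term, 58 after quantile normalization, 64 without the dimmest 40 percent (62 of them among the 118), 38 with array weights and 13 to 549 without single arrays; with the 15 arrays and without wild-type replicate 3, chosen after seeing the data, it was 11. Against the E2f7 knockout, 22 became 7 with the 15 arrays, 7 without the run term, 47 with array weights and 7 to 32 without single arrays of the 7. Against the E2f8 knockout, 126 became 41, 32 and, without single arrays, 63 to 161. The 1 call of a change with age became 0 in limma after quantile normalization, without dim genes and with probe sets averaged, and 0 to 4 without single arrays. The cause of these moves was not tested; a fit of fewer arrays has fewer residual degrees of freedom, 11 and 5 in place of 25.

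With the replicate number as a block 232 genes were called at 3 weeks, 101 of them shared with the 118, and the change with age was called in 0. The numbers do not pair the samples, and 0 of 3 wild-type arrays matched best with the knockout array of the same number.

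Of these 51, 2 kept their call with the 15 arrays, 1 with the 7 arrays, 8 without a run term, 23 with array weights, 36 of 40 without the dimmest genes, 45 after centring, 31 after quantile normalization, 36 with probe sets averaged, 51 without the trend, and 11 to 48 without single arrays. Median differences over all genes lay within 0.02 of 0 under every scaling.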

Other observations

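Some liver genes varied more within a group than between the groups. The signal ranged over more than 2 log2 units among the 3 wild-type arrays in 35 genes and among the 4 knockout arrays in 28, 15 of them in both, and 0 of the 35 were called by limma. They include stress, fasting and clock genes such as Igfbp1, Hspa1b, Dbp and Pdk4, and sex-biased genes such as Cyp4a12a. Cyp4a12a, a fatty acid hydroxylase higher in male liver, was 9.98, 11.003 and 7.86 in wild type and 11.72, 11.74, 10.29 and 7.62 in the knockout. The mean of 3 measured Y-linked genes was similar in all 7 arrays, at 6.78 to 7.08 in wild type and 6.68 to 6.81 in the knockout. Rgs16, a regulator of G-protein signalling, was 10.72, 6.67 and 10.10 against 7.50, 7.26, 8.33 and 10.03. These genes and ranges were picked out after their values were seen.

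Mndal, an interferon-inducible gene of the Ifi200 family, was 5.81, 7.16 and 2.81 in wild type and between 2.76 and 3.43 in all 4 knockout arrays. Wild-type replicate 3 thus lay at the knockout's level, and the difference of -2.27 (SE 0.75) had a limma adjusted p = 0.141. Against the E2f8 knockout, at 6.48 ± 0.38 (SD, n = 4), the double knockout was lower, at -3.49 (SE 0.69, adjusted p = 0.0121).

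Of 42 gene lists, 8 had array means that did not overlap between the groups, where 10.4% of single genes did not overlap. The lists were chosen with results of these data known, so this count is no independent support. In the MHC class II list 5 of 12 measured members lay above 0. The knockout was higher for the E2F family, the protocadherins and the serine, glycine and ATF4 genes, and lower for MHC class II, acute phase, bile acid, coagulation and sinusoidal endothelial genes. The E2F family holds the targeted genes: without E2f7 and E2f8, an alternative chosen after seeing the data, its 8 other measured members averaged 7.28 to 7.52 in wild type and 7.45 to 7.57 in the knockout, which overlap.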
